A study of Mus musculus with 32 samples.

Results

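A set of 10 tubulin genes were followed across fibroblasts that differed in where ATP-citrate lyase was placed. The members are Tubb3, Tubb2a, Tubb2b, Tubb4b, Tubb5, Tubb6, Tuba1a, Tuba1b, Tuba1c and Tuba4a, 10 of the 12913 genes measured in either medium, and all 10 were measured in both. They were named by symbol, and Tubb3 was picked because it differed between Nuc and Cyto cells. For Tubb3, every comparison that holds Nuc or Cyto is therefore given as a description without a test, and counts of called members cover the other 9.

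The cells were mouse embryonic fibroblasts in which endogenous Acly was knocked out, and each group carried 1 of 4 constructs. Nuc cells expressed mCherry-tagged human ACLY with additional nuclear import sequences (NLS), and Cyto cells expressed it with a nuclear export sequence (NES). WT cells expressed the tagged enzyme without either, and KO cells expressed mCherry alone from the same vector. All lines thus lack endogenous Acly, and the sources used here do not give whether a line is a pool or 1 clone. The cells spent 24 h in 1 mM or 10 mM glucose. There were 4 libraries per construct in 1 mM glucose (16 in all) and 15 libraries in 10 mM, because the submitters describe the third Cyto library as an anomaly and it was left out. The 1 mM libraries were batch 1 and the 10 mM libraries batch 2, with a table normalized for each, so medium and batch cannot be told apart and levels were tested only within a medium. The labels name no separate cultures behind the libraries of a group, so p-values measure the spread among these libraries, which may be technical.

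Read depth is unknown, since the values are log2 normalized expression. Libraries of 1 group correlated at 0.970 to 0.990 in 1 mM and 0.962 to 0.985 in 10 mM glucose, against 0.915 to 0.960 and 0.913 to 0.958 between groups. Transcript assigned to Acly lay at 8.87 to 10.68 in libraries with an ACLY construct and at 5.19 to 5.43 in KO libraries in 1 mM, and at 8.98 to 10.28 and 5.63 to 6.12 in 10 mM. In Nuc against Cyto its log2 difference was -1.53 in 1 mM and -0.62 in 10 mM glucose (limma, adjusted p = 2.46e-11 and 0.000142). Against WT it was -1.60 and -1.09 in Nuc (adjusted p = 1.13e-11 and 1.84e-07). In Cyto against WT it was -0.06 and -0.47 (adjusted p = 0.425 and 0.00157). Location of the enzyme and amount of its transcript therefore cannot be told apart between these lines, except in Cyto against WT in 1 mM glucose. There no difference in transcript was called, and the amount of protein is not known from these data. All 11 fibroblast markers were measured, 0 of 4 epithelial markers and 3 of 16 (1 mM) or 5 of 16 (10 mM) neuronal markers. In these bulk samples, fewer cells of a type and less RNA per cell cannot be told apart.

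Microtubules are built from dimers of 1 α- and 1 β-tubulin, each encoded by several genes, the isotypes, whose proteins differ mostly in their tails. Tubb5 and Tuba1b are widely expressed isotypes, whereas Tubb3 is best known from neurons, where it serves as a standard marker. Tubulin mRNA is also under feedback: when free dimers are plentiful, TTC5 binds the nascent tubulin chain and, through SCAPER, brings in the CCR4-NOT deadenylase, so that the mRNA is degraded.

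The start-site regions of 8 of the 10 members were found in RefSeq (GRCm38.p6, 250 bases before to 50 after the annotated start). Those of 3 are printed, because Tubb3 had the widest spread between constructs and because Tubb4b and Tuba1a were lower in all 3 ACLY lines than in KO in 1 mM glucose. Tubb2a was also lower in all 3, but its region is not printed, since the bases after its RefSeq start were not found in the transcripts used here for lengths. Capitals mark CCAAT, the box bound by NF-Y, and GGGCGG, the GC box bound by Sp1, on either strand (ATTGG and CCGCCC on the reverse). The regions are chr8:123411303-123411602 (plus strand) for Tubb3, chr2:25224653-25224952 (minus strand) for Tubb4b and chr15:98953452-98953751 (minus strand) for Tuba1a.
Tubb3: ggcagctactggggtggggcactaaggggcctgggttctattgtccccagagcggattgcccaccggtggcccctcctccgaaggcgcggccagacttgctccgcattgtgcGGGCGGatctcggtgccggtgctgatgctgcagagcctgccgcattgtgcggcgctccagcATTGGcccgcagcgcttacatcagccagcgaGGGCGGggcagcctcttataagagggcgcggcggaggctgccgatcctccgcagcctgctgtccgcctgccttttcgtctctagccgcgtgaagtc
Tubb4b: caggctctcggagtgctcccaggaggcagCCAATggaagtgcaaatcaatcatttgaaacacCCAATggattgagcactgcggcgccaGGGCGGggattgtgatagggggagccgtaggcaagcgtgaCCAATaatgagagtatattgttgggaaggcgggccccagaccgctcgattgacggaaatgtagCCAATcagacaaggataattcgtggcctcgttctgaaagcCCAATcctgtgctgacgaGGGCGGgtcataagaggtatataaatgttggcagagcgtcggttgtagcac
Tuba1a: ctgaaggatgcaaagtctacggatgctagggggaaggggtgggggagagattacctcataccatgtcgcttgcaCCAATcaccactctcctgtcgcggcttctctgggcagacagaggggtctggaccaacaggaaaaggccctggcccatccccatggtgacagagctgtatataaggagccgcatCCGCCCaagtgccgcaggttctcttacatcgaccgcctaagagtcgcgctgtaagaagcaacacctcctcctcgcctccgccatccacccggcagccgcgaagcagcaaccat
The Tubb3 region held 1 CCAAT, on the reverse strand 77 bases before the start, and 2 GC boxes, 138 and 46 bases before it. Tubb4b held 5 CCAAT boxes and 2 GC boxes, and Tuba1a 1 of each. CCAAT occurred in 5 of the 8 member regions and in 37.41% of 32851 regions of the same length, and GGGCGG in 7 of 8 and 35.66%. TATAAA, the sequence of the TATA box, occurred in 2 of 8 and 13.62%, in Tubb2a 29 bases before the start and in Tubb4b 18 bases after it. TTTGAA, a cell-cycle element, occurred in 1 of 8 (Tubb4b) and 17.89%. No matches of these motifs overlapped, and a match is a description of the sequence and not of a bound site.

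Tubb3 transcript was highest in Nuc cells in both media, and its rank in Cyto cells was not the same in the 2 media. In 1 mM glucose the log2 levels were 3.83, 4.03, 4.18 and 4.13 in Nuc libraries, 2.86, 3.01, 2.95 and 3.14 in Cyto, 2.45, 3.38, 2.84 and 2.83 in WT, and 1.99, 1.46, 1.72 and 1.34 in KO. Every Nuc library lay above all others and every KO library below all others, while Cyto and WT overlapped. In 10 mM glucose the levels were 3.72, 3.77, 3.70 and 4.0 in Nuc libraries, 0.75, -0.18 and 0.32 in Cyto, 3.21, 3.11, 3.19 and 3.51 in WT, and 2.73, 2.90, 2.79 and 3.08 in KO. Here the order was Nuc, WT, KO and Cyto, with no overlap between neighbours, and the Cyto libraries still lay above the lowest value of that table, -3.29.

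The means were 4.04 ± 0.15 in Nuc, 2.99 ± 0.12 in Cyto, 2.88 ± 0.38 in WT and 1.63 ± 0.29 in KO cells in 1 mM glucose (SD, n = 4 each). At 10 mM glucose they were 3.80 ± 0.14 in Nuc, 0.30 ± 0.47 in Cyto, 3.26 ± 0.17 in WT and 2.87 ± 0.15 in KO cells (SD, n = 4, and n = 3 for Cyto). The difference between Nuc and Cyto, for which the gene was chosen, was thus 2.07-fold in 1 mM and 11.3-fold in 10 mM glucose. Against KO, Cyto cells had a 2.58-fold higher level in 1 mM and a 5.97-fold lower level in 10 mM glucose. With 1 added on the linear scale, the log2 difference between Nuc and Cyto in 10 mM glucose was 2.73 in place of 3.50, and that between Cyto and KO was -1.89 in place of -2.58.

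**Figure D1:**
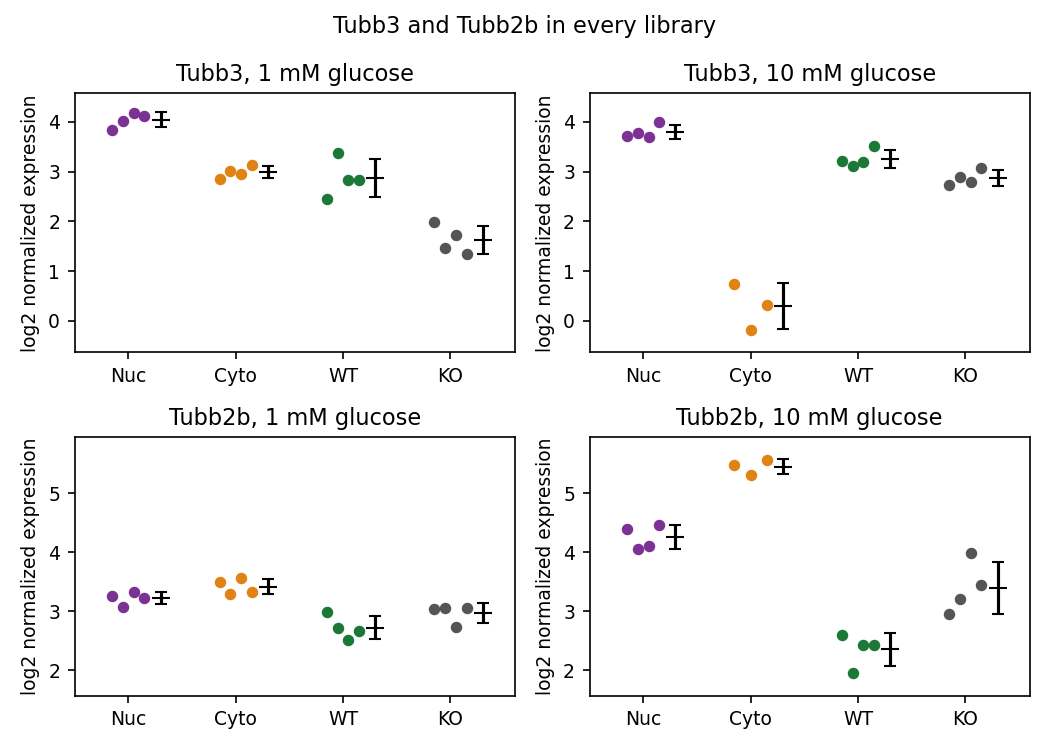
Log2 normalized expression of Tubb3 and Tubb2b in every library by construct, with the mean and SD as a black bar; 1 mM glucose is on the left and 10 mM on the right. With 10 mM glucose the 3 Cyto libraries have the lowest Tubb3 values, at most 0.75, and the highest Tubb2b values, at least 5.31.

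WT against KO was the 1 Tubb3 comparison whose difference was not touched by the choice of the gene, and it was tested. Its SE and p still rest on the spread of all 4 groups, Nuc and Cyto included. Within each medium the call was the same in a fit of the WT and KO libraries alone. Tubb3 was higher in WT than in KO cells in 1 mM glucose, by 1.25 ± 0.17 on the log2 scale (limma's SE here and below; adjusted p = 1.21e-05), with all 4 WT libraries above all 4 KO libraries. With 10 mM glucose the difference was 0.38 ± 0.18 and did not pass (adjusted p = 0.108), although the groups did not overlap. The WT effect was larger in 1 mM than in 10 mM glucose by 0.87 ± 0.25 (adjusted p = 0.0110). Of all genes tested, 58.2% were called between WT and KO in 1 mM, 40.8% in 10 mM and 26.2% for the difference between media.

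Other genes typical of neurons were examined beside Tubb3. Most of that list, among them Rbfox3, Dcx, Snap25, Stmn2 and the neurofilament genes, was not among the genes analysed here. Summed over the 3 that were measured in 1 mM glucose (Map2, L1cam and Ncam1), the linear level was 277 to 290 in Nuc, 132 to 156 in Cyto, 133 to 217 in WT and 166 to 183 in KO libraries. Over the 5 measured in 10 mM (with Syp and Syt1) it was 242 to 346 in Nuc, 129 to 148 in Cyto, 183 to 208 in WT and 179 to 218 in KO libraries. Nuc libraries were the highest for this sum, but its genes did not move together: against KO, 1 was higher and 2 lower in Nuc in 1 mM glucose (median -0.87), and 2 were higher and 2 lower in 10 mM (median -0.73). Of all genes, 60.0% were called between Nuc and KO in 1 mM (30.5% as higher and 29.5% as lower). In 10 mM 45.3% were called (22.7% as higher and 22.7% as lower). Ncam1, a cell adhesion molecule, rose in Nuc against Cyto by 1.09 ± 0.10 in 1 mM and 1.25 ± 0.10 in 10 mM (adjusted p = 1.79e-07 and 9.68e-08), and Syt1, a calcium sensor of synaptic vesicles, by 3.54 ± 0.47 in 10 mM (adjusted p = 2.73e-05). Map2, a dendritic microtubule-associated protein, fell against KO in all 3 ACLY lines, with log2 changes of -0.87 ± 0.23 in Nuc, -0.84 ± 0.23 in Cyto and -1.02 ± 0.23 in WT cells in 1 mM glucose (largest adjusted p = 0.00410). L1cam, an adhesion molecule of axons, fell in Nuc against KO by 0.95 ± 0.26 in 1 mM and 1.09 ± 0.38 in 10 mM (adjusted p = 0.00493 and 0.0263). S100b, a calcium-binding protein of glia, was higher in Nuc than in Cyto by 2.19 ± 0.43 in 1 mM and 2.13 ± 0.38 in 10 mM (adjusted p = 0.000611 and 0.000419). In Cyto against KO it fell by 4.31 ± 0.43 in 1 mM and fell by 1.94 ± 0.38 in 10 mM (adjusted p = 1.63e-07 and 0.000680), whereas Tubb3 lay above KO in Cyto in 1 mM glucose. The part of other cells in the Tubb3 result was not tested.

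The other tubulins did not track Tubb3. Over all 31 libraries, each gene centred within its medium, their Pearson r with Tubb3 ran from -0.44 (Tubb2a and Tubb2b) to 0.22 (Tuba1c). Among 5710 genes of at least median level, the 5 most like Tubb3 were Tap2 (r = 0.866), which encodes a subunit of the peptide transporter for antigen presentation, Oat (0.851), ornithine aminotransferase, Paip2b (0.827), an inhibitor of poly(A)-binding protein, Cnbp (0.822), a nucleic acid binding protein, and Tmem168 (0.821), a membrane protein; the median r was 0.0297. The libraries share constructs and media, so these r describe a shared pattern over 8 groups and carry no p. The means of Tap2 were 5.71 in Nuc, 5.02 in Cyto, 5.16 in WT and 4.77 in KO cells in 1 mM glucose. In the same order they were 5.75, 4.13, 5.12 and 4.62 in 10 mM, lowest in Cyto. Tap2 was picked for its r with Tubb3, so this likeness is no separate result.

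**Figure D2:**
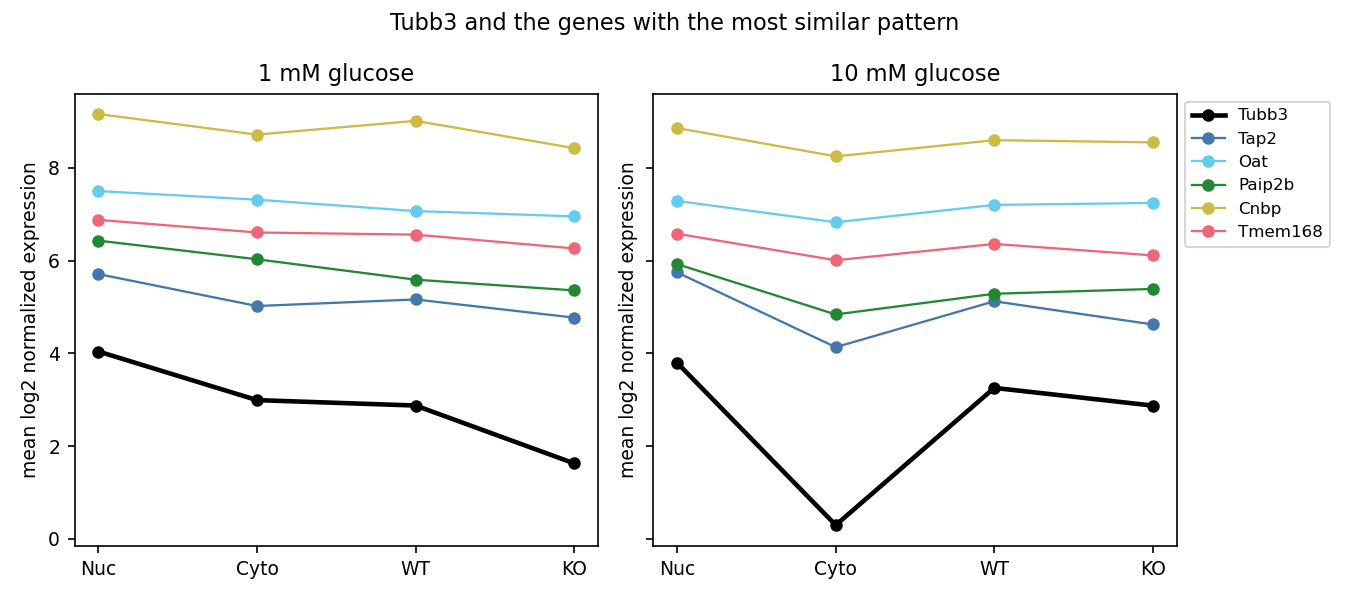
Mean log2 normalized expression of Tubb3 (thick black line) and of the 5 genes with the highest Pearson r with it, by construct, in 1 mM (left) and 10 mM glucose (right). All 6 genes are highest in Nuc in both media and lowest in Cyto in 10 mM glucose, and the range of Tubb3 is the widest. The 5 genes were picked for their likeness to Tubb3, so the shared pattern is no separate result.

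Tubb2b, another β-tubulin prominent in the developing brain, had its highest mean in Cyto cells in both media, although Nuc and Cyto overlapped in 1 mM glucose. With 1 mM glucose its log2 levels were 3.25, 3.08, 3.32 and 3.22 in Nuc, 3.50, 3.29, 3.56 and 3.33 in Cyto, 2.98, 2.72, 2.51 and 2.67 in WT, and 3.04, 3.05, 2.72 and 3.06 in KO libraries. In 10 mM glucose they were 4.39, 4.06, 4.11 and 4.47 in Nuc, 5.47, 5.31 and 5.56 in Cyto, 2.60, 1.95, 2.43 and 2.43 in WT, and 2.95, 3.21, 3.98 and 3.45 in KO libraries. At 10 mM glucose the 4 groups did not overlap, in the order Cyto, Nuc, KO and WT, which is not the order of Tubb3. Against KO, Tubb2b rose in Nuc by 0.86 ± 0.19 and in Cyto by 2.05 ± 0.21 and fell in WT by 1.04 ± 0.19 in 10 mM glucose (adjusted p = 0.00169, 1.13e-06 and 0.000412). In Nuc against Cyto it fell by 1.19 ± 0.21 (adjusted p = 0.000382). Against KO in 1 mM glucose it rose in Cyto by 0.45 ± 0.12 (adjusted p = 0.00297), while 0.25 ± 0.12 in Nuc and -0.25 ± 0.12 in WT did not pass (adjusted p = 0.0780 and 0.0797). Tubb2a and Tubb2b are near-identical in sequence, as are Tuba1a, Tuba1b and Tuba1c, so reads may have been split between them and their separate values are less certain.

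In 1 mM glucose, Tuba1a, Tubb2a and Tubb4b were lower in all 3 ACLY lines than in KO cells, and Cyto cells had the most members lower. Cyto cells had 1 member higher and 6 lower than KO cells of the 9 (64.7% of all genes were called, 31.7% as higher and 33.0% as lower). Nuc cells had 1 higher and 4 lower (60.0%, 30.5% and 29.5%), and WT cells 0 higher and 4 lower (58.2%, 29.7% and 28.5%). Once transcript length trends were removed, 8 were called in WT. The median log2 change of the 9 was -0.61 in Cyto, -0.13 in Nuc and -0.19 in WT, beside -0.03, -0.01 and -0.00 over all genes. With such shares of called genes the numbers of calls are near the background in Nuc and WT, and direction and size describe the members better.

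Tuba1a, an α-tubulin of embryonic and neural tissue, had the largest falls. Its log2 levels in 1 mM glucose were 8.21, 8.52, 8.45 and 8.61 in Nuc, 8.32, 8.0, 8.16 and 8.29 in Cyto, 8.40, 8.42, 8.25 and 8.36 in WT, and 9.43, 9.27, 9.53 and 9.47 in KO libraries. Every KO library lay above every library with an ACLY construct, while the 3 ACLY lines overlapped one another. The falls against KO were 0.98 ± 0.09 in Nuc, 1.24 ± 0.09 in Cyto and 1.07 ± 0.09 in WT, that is 1.97-, 2.35- and 2.10-fold (adjusted p = 4.87e-08, 2.13e-09 and 2.47e-08). Tubb5, the main β-tubulin of dividing cells, had levels of 9.59, 9.79, 9.77 and 9.79 in Nuc, 9.25, 9.09, 9.12 and 9.10 in Cyto, 10.04, 10.08, 9.99 and 9.99 in WT, and 10.18, 10.05, 10.25 and 10.20 in KO libraries. It fell in Nuc by 0.43 ± 0.06 and in Cyto by 1.03 ± 0.06 (adjusted p = 9.68e-06 and 2.51e-10), with Cyto below all other libraries, and its difference in WT, -0.14 ± 0.06, did not pass (adjusted p = 0.0515).

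Tubb4b, a β-tubulin common in ciliated and dividing cells, fell in all 3 ACLY lines, by 0.26 ± 0.09 in Nuc, 0.77 ± 0.09 in Cyto and 0.46 ± 0.09 in WT (adjusted p = 0.0170, 9.24e-07 and 0.000320). The Nuc call was lost without Nuc library 1 (adjusted p = 0.0637) or KO library 3 (0.0633). Tubb2a fell by 0.70 ± 0.07, 0.72 ± 0.07 and 0.51 ± 0.07 in Nuc, Cyto and WT (largest adjusted p = 7.29e-06). Tuba1b and Tuba1c fell in Cyto by 0.61 ± 0.08 and 0.42 ± 0.09 (adjusted p = 4.36e-06 and 0.000849). They did not pass in Nuc (-0.13 and 0.01) or WT (-0.11 and -0.08). Tubb6, a broadly expressed β-tubulin, rose in Nuc by 0.28 ± 0.06 and fell in WT by 0.19 ± 0.06 (adjusted p = 0.000993 and 0.0143), and the WT call was lost without KO library 4 (adjusted p = 0.0507). Tuba4a passed in none of the 3 by limma, with log2 differences of 0.13 to 0.22 and unadjusted p of 0.221 in Nuc, 0.121 in Cyto and 0.0495 in WT.

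**Figure D3:**
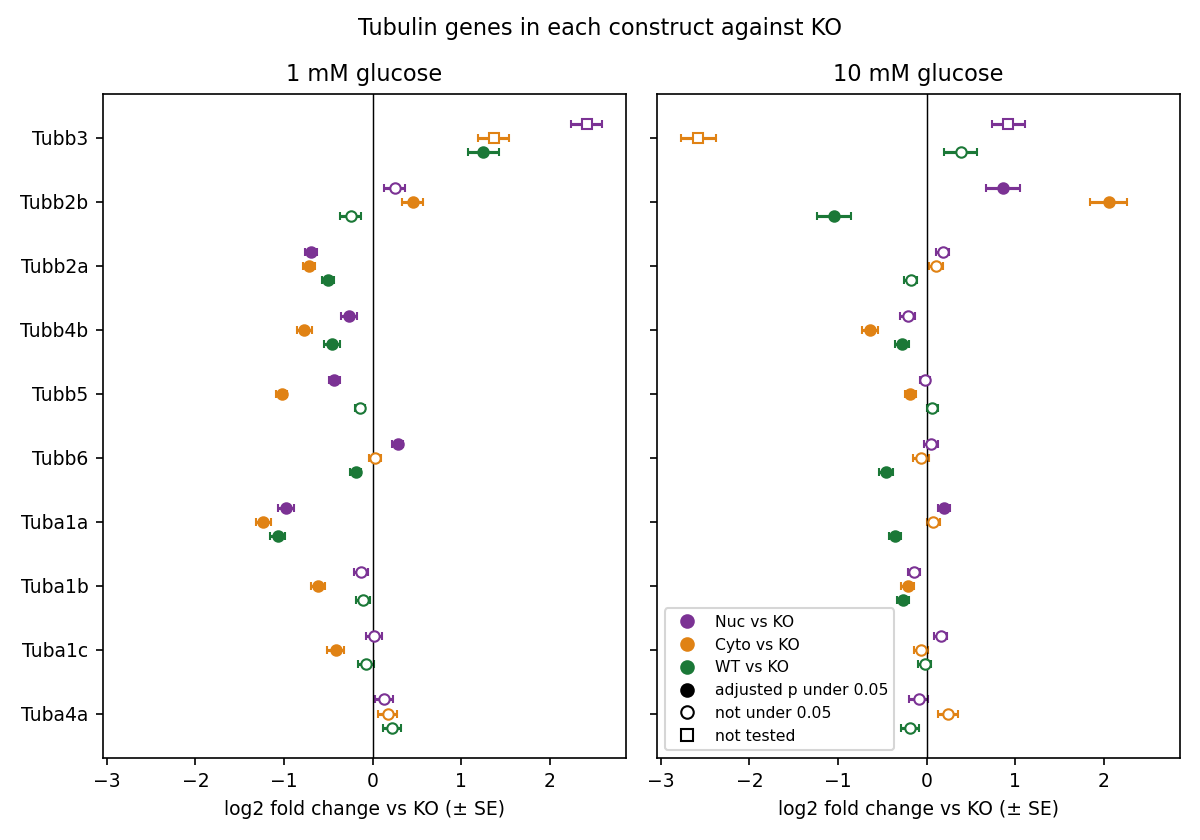
Log2 fold change of each tubulin gene against KO with limma's SE, in Nuc, Cyto and WT cells, in 1 mM (left) and 10 mM glucose (right). Filled points have an adjusted p under 0.05, open circles do not, and open squares (Tubb3 in Nuc and Cyto) were not tested; in 1 mM glucose Tuba1a, Tubb2a and Tubb4b lie left of 0 in all 3 lines.

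Genes of mitosis were lower than in KO in all 3 ACLY lines in both media. Of the 20 on that list, 19 were lower in Nuc, 20 in Cyto and 20 in WT than in KO cells in 1 mM glucose (29.5%, 33.0% and 28.5% of all genes), and 0 were higher. Their summed linear level was 838 to 1107 in Nuc, 571 to 673 in Cyto, 815 to 869 in WT and 1417 to 1646 in KO libraries, so KO libraries were highest and Cyto libraries lowest. With 10 mM glucose 19 were lower in Nuc, 20 in Cyto and 19 in WT (22.7%, 18.9% and 20.2% of all genes). The sums of the list there were 2315 to 2493 in Nuc, 1965 to 1997 in Cyto, 2260 to 2356 in WT and 3368 to 3547 in KO libraries. In 1 mM glucose Tuba1a, Tubb2a and Tubb4b were lower than in KO in all 3 lines. Tubb5 was lower in Nuc and Cyto, Tuba1b and Tuba1c in Cyto, and Tubb6 in WT, while Tubb6 rose in Nuc and Tubb2b in Cyto. In 10 mM glucose 2 members were higher and 0 lower in Nuc, 1 higher and 3 lower in Cyto, and 0 higher and 5 lower in WT. The part of the mitosis genes in the tubulin results was not tested.

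With 10 mM glucose Tubb2b had the largest differences from KO among the 9 tested members. Of these, 2 were higher and 0 lower in Nuc (45.3% of all genes called, 22.7% as higher and 22.7% as lower). In Cyto 1 was higher and 3 lower (38.5%, 19.6% and 18.9%), and in WT 0 were higher and 5 lower (40.8%, 20.6% and 20.2%). The number for Nuc was 5 without the libraries numbered 4, which had high tubulin values in several groups, and that for Cyto was 2 without KO library 3, KO library 4, Cyto library 2 or Cyto library 4. The median log2 change was 0.05 in Nuc, -0.06 in Cyto and -0.27 in WT, with all-gene medians of -0.00 in each.

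Tuba1a levels in 10 mM glucose were 9.90, 9.95, 9.98 and 10.22 in Nuc, 9.88, 9.84 and 9.94 in Cyto, 9.41, 9.46, 9.42 and 9.55 in WT, and 9.68, 9.79, 9.87 and 9.93 in KO libraries. WT libraries lay below all others, and Nuc and Cyto overlapped with KO. Tuba1a fell in WT by 0.36 ± 0.07 (adjusted p = 0.000598) and rose in Nuc by 0.20 ± 0.07 (adjusted p = 0.0280), a call that was lost without Nuc library 4 (adjusted p = 0.0812), KO library 1 (0.0921) or KO library 2 (0.0625), and after quantile normalization (0.08, adjusted p = 0.171). Tubb4b fell in Cyto by 0.64 ± 0.09 and in WT by 0.28 ± 0.08 (adjusted p = 3.73e-05 and 0.0147). Tubb6 fell in WT by 0.46 ± 0.08 and Tuba1b by 0.27 ± 0.07 (adjusted p = 0.000244 and 0.00495).

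Tubb5 in 10 mM glucose had 10.38, 10.42, 10.41 and 10.59 in Nuc, 10.31, 10.24 and 10.30 in Cyto, 10.52, 10.51, 10.51 and 10.60 in WT, and 10.37, 10.39, 10.54 and 10.57 in KO libraries. Cyto was below every other library, but by little: Tubb5 fell by 0.19 ± 0.06 and Tuba1b by 0.21 ± 0.07 in Cyto (adjusted p = 0.0274 and 0.0318). Both calls were lost without KO library 3, KO library 4, Cyto library 2 or Cyto library 4, and that of Tuba1b also without Cyto library 1 (adjusted p = 0.0502 to 0.103). Tubb5 in WT differed from KO by 0.07 ± 0.06 (adjusted p = 0.392), and by -0.24 (adjusted p = 7.97e-05) after quantile normalization.

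**Figure D4:**
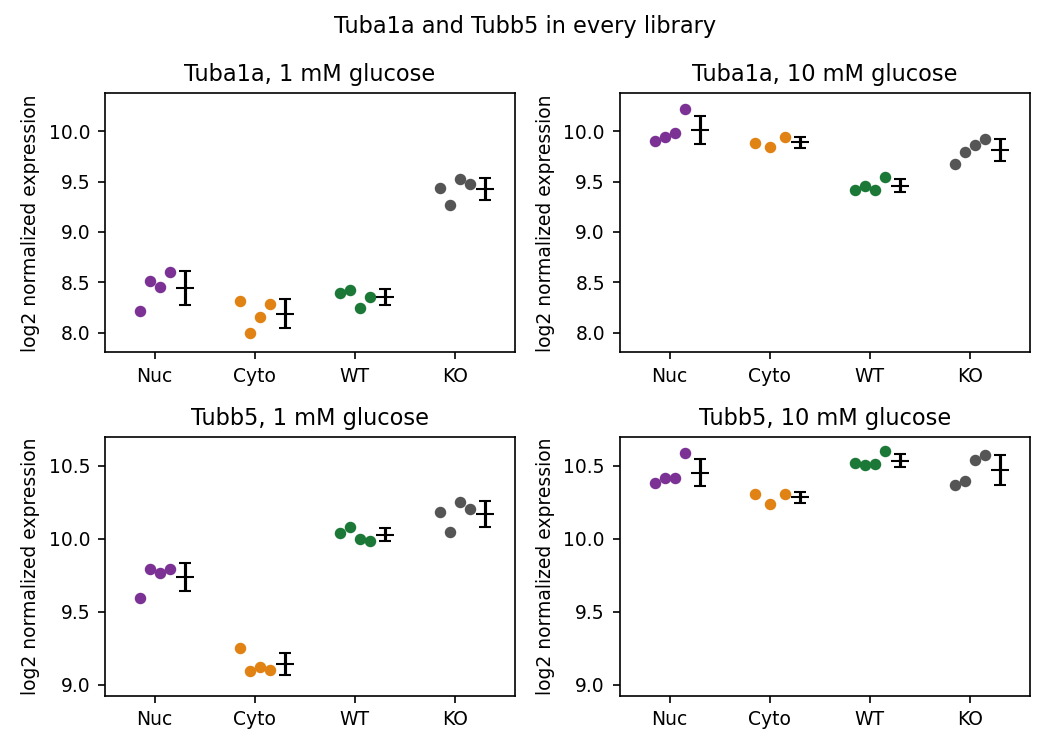
Log2 normalized expression of Tuba1a and Tubb5 in every library by construct, with mean and SD as a black bar, in 1 mM (left) and 10 mM glucose (right). In 1 mM glucose all KO libraries have more Tuba1a (at least 9.27) than any library with ACLY (at most 8.61), and the Cyto libraries have the least Tubb5 (at most 9.25).

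Nuc and Cyto cells were compared directly for the members not chosen on that difference. In 1 mM glucose, 6 of the 9 were higher in Nuc and 0 lower (41.0% of all genes called, 20.4% as higher and 20.5% as lower), with a median of 0.26 beside 0.01 over all genes. These were Tubb5 (0.59 ± 0.06, adjusted p = 6.45e-07), Tubb4b (0.51 ± 0.09, 0.000218), Tuba1b (0.49 ± 0.08, 0.000139), Tuba1c (0.43 ± 0.09, 0.00134), Tubb6 (0.26 ± 0.06, 0.00358) and Tuba1a (0.26 ± 0.09, 0.0245). Groups did not overlap in the first 5. The Tuba1a groups overlapped, and its call was lost without Nuc library 2, 3 or 4 or Cyto library 2 or 3 (adjusted p = 0.0505 to 0.0937). All 20 mitosis genes were higher in Nuc in this comparison, and their part was not tested.

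In 10 mM glucose, 2 members were higher and 2 lower in Nuc than in Cyto (31.0% of all genes called, 15.3% as higher and 15.7% as lower). The number was 2 without Nuc library 2, Nuc library 3, Cyto library 1 or Cyto library 4. Tubb4b was higher by 0.43 ± 0.09 (adjusted p = 0.00189) and Tubb2b lower by 1.19. Tuba1c was higher by 0.22 ± 0.08 (adjusted p = 0.0462) and Tuba4a lower by 0.33 ± 0.11 (adjusted p = 0.0326). Both of these calls were lost when any of several single libraries was left out, with adjusted p up to 0.151 for Tuba1c and 0.0989 for Tuba4a. For Tubb5 every Nuc library lay above every Cyto library, with a difference of 0.17 ± 0.06 that did not pass (adjusted p = 0.0516).

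Against WT, Cyto differed in more members than Nuc did in both media, and in more of all genes as well. These numbers share the WT libraries. At 1 mM glucose Nuc had 2 members higher and 2 lower than WT (39.1% of all genes called, 19.7% as higher and 19.4% as lower), a share near that of all genes. Cyto had 2 higher and 5 lower (53.2%, 25.7% and 27.5%). Tubb2a fell in Nuc by 0.19 ± 0.07 (limma, adjusted p = 0.0334), a call lost without Nuc library 1 (0.125) and in other alternatives. Tubb5 fell against WT by 0.29 ± 0.06 in Nuc and by 0.88 ± 0.06 in Cyto (adjusted p = 0.00110 and 3.06e-09); after quantile normalization the fall in Nuc was 0.11 and did not pass (adjusted p = 0.213). Tubb2b rose by 0.50 ± 0.12 in Nuc and by 0.70 ± 0.12 in Cyto (adjusted p = 0.00305 and 9.32e-05), and Tubb6 by 0.48 ± 0.06 and 0.22 ± 0.06 (adjusted p = 1.66e-05 and 0.00726). The Tubb6 difference in Cyto was 0.16 after quantile normalization and did not pass (adjusted p = 0.0655). In 10 mM glucose Nuc had 4 higher and 0 lower (28.8%, 15.0% and 13.8%), and Cyto 5 higher and 2 lower (31.5%, 15.9% and 15.6%). The 4 of Nuc were Tubb2b (1.91 ± 0.19, adjusted p = 1.79e-06), Tuba1a (0.55 ± 0.07, 1.64e-05), Tubb6 (0.51 ± 0.08, 0.000151) and Tubb2a (0.36 ± 0.07, 0.00132). The same 4 were higher in Cyto, with Tubb2b at 3.10 ± 0.21 (adjusted p = 1.84e-08), together with Tuba4a at 0.43 ± 0.11 (0.00717), while Tubb4b and Tubb5 were lower by 0.36 ± 0.09 and 0.25 ± 0.06 (0.00616 and 0.00573). After quantile normalization this fall of Tubb5 was 0.08 and did not pass (adjusted p = 0.175).

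Whether a construct's effect differed between the media was tested by subtracting its log2 effect in 10 mM from its effect in 1 mM glucose. Each medium was its own batch, so a difference due to glucose and one due to batch cannot be told apart. For Nuc against KO, 0 members were higher and 4 lower in 1 mM (36.5% of shared genes called, 17.8% as higher and 18.7% as lower). For Cyto against KO 0 were higher and 6 lower (44.7%, 21.5% and 23.2%). For WT against KO 2 were higher and 2 lower (26.2%, 13.5% and 12.7%), and for Nuc against Cyto 3 and 0 (19.0%, 9.47% and 9.48%). Tuba1a differed between media in all 3 lines: its change against KO was lower in 1 mM by 1.17 ± 0.11 in Nuc, 1.31 ± 0.12 in Cyto and 0.71 ± 0.11 in WT (adjusted p = 3.07e-09, 5.16e-10 and 2.24e-05). Tubb2a was lower by 0.88 ± 0.10, 0.82 ± 0.10 and 0.33 ± 0.10 in Nuc, Cyto and WT (largest adjusted p = 0.0140). Tubb5 was lower by 0.42 ± 0.08 in Nuc and 0.84 ± 0.08 in Cyto (adjusted p = 0.000185 and 4.07e-09). Tubb4b passed in none of the 3 comparisons with KO by limma (unadjusted p = 0.675 in Nuc, 0.320 in Cyto and 0.160 in WT). The 3 comparisons share the KO libraries of both media.

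Levels of different isotypes were compared per length, as the linear value divided by the length of the longest annotated transcript in kb. The shares and sums below assume that the deposited values were not already scaled by length, which was not tested. Tubb5 made up most of the β-tubulin transcript, with 61.5% ± 0.462 in Nuc, 56.8% ± 0.690 in Cyto, 69.7% ± 0.821 in WT and 66.2% ± 0.427 in KO cells in 1 mM glucose (SD, n = 4 each). Tubb3 was a minor part there, with 1.69% ± 0.0943 in Nuc, 1.14% ± 0.131 in Cyto, 0.711% ± 0.170 in WT and 0.256% ± 0.0513 in KO cells. At 10 mM glucose its share was 0.795% ± 0.0179 in Nuc, 0.0823% ± 0.0250 in Cyto, 0.575% ± 0.0478 in WT and 0.416% ± 0.0316 in KO cells (SD, n = 4, and n = 3 for Cyto). Tubb2b took 2.43% ± 0.162 of the β-tubulin transcript in Cyto cells in 10 mM glucose and 0.266% to 0.940% in the other groups, so Cyto cells held much more Tubb2b than Tubb3 per length. Among the α-tubulins, Tuba1b led everywhere. The share of Tuba1a in 1 mM glucose was 27.4% ± 0.753 in Nuc, 30.4% ± 1.42 in Cyto, 26.1% ± 1.55 in WT and 40.9% ± 0.701 in KO cells. The summed β-tubulin level per kb in 1 mM glucose was 524 ± 35.1 in Nuc, 375 ± 18.1 in Cyto, 565 ± 22.3 in WT and 657 ± 39.4 in KO cells, and that of α-tubulin was 709 ± 64.2, 535 ± 28.9, 700 ± 66.1 and 937 ± 74.4. Cyto cells thus had the least and KO cells the most of both chains in 1 mM glucose. With 10 mM glucose the β-tubulin sums were 939 ± 81.8 in Nuc, 824 ± 17.3 in Cyto, 893 ± 38.7 in WT and 947 ± 68.1 in KO cells. The α-tubulin sums there were 1509 ± 144.7 in Nuc, 1409 ± 23.8 in Cyto, 1243 ± 60.7 in WT and 1508 ± 116 in KO cells, so that WT and not Cyto had the least α-tubulin transcript.

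**Figure D5:**
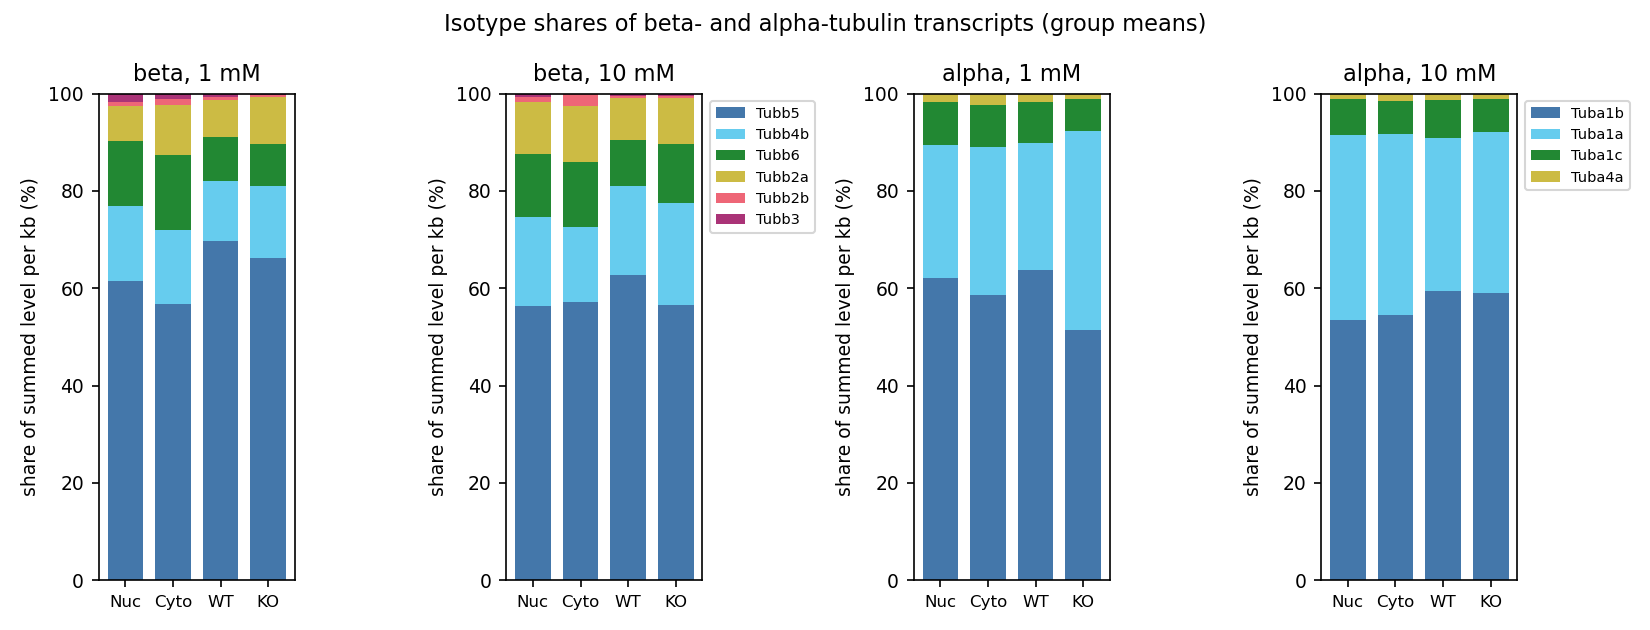
Group mean share of each isotype in the summed level per kb of the 6 β-tubulin members (2 panels on the left) and the 4 α-tubulin members (2 panels on the right), by construct and medium. Tubb5 and Tuba1b are the largest parts in every bar, and the Tuba1a part is larger in KO (40.9%) than in the 3 ACLY lines in 1 mM glucose.

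Other tubulin genes also tended to lower values in Cyto cells. Of the 4 measured among 10 (Tubb4a, Tubg1, Tubd1 and Tube1), 3 were higher and 0 lower in Nuc than in Cyto in both media, and 4 were lower in Cyto than in KO in both media. Of all genes, 20.4% (1 mM) and 15.3% (10 mM) were called higher in Nuc than in Cyto, and 33.0% and 18.9% lower in Cyto than in KO. Tubg1, the γ-tubulin that nucleates microtubules, fell against KO in 1 mM glucose by 0.37 ± 0.08 in Nuc, 0.90 ± 0.08 in Cyto and 0.26 ± 0.08 in WT (adjusted p = 0.000565, 2.53e-08 and 0.00762). Tubb4a was higher in Nuc than in Cyto by 1.35 ± 0.31 in 10 mM glucose (adjusted p = 0.00304).

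Among genes of the tubulin folding machinery, Tbcb had the largest rises against KO in 1 mM glucose. Of 21 measured genes for the CCT chaperonin, prefoldin and the tubulin cofactors, 9 were higher and 5 lower in Nuc, 12 higher and 1 lower in Cyto, and 13 higher and 3 lower in WT than in KO cells, with median log2 changes of 0.19, 0.25 and 0.34. Over all genes 60.0% were called in Nuc, 64.7% in Cyto and 58.2% in WT, and the shares of the list called in Nuc and Cyto were near those. Tbcb, the cofactor that takes up α-tubulin, rose by 1.43 ± 0.16, 1.30 ± 0.16 and 1.03 ± 0.16 (largest adjusted p = 3.87e-05). With 10 mM glucose the numbers were 2 higher and 7 lower in Nuc, 2 and 4 in Cyto, and 5 and 4 in WT, where 45.3%, 38.5% and 40.8% of all genes were called. The shares of the list called in Nuc and WT in 10 mM glucose were near those. Vbp1, a prefoldin subunit, fell there by 0.77 ± 0.09, 0.45 ± 0.10 and 0.90 ± 0.09 (largest adjusted p = 0.00217).

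Of the 12 genes of mRNA feedback, 1 was higher and 6 lower in Nuc, 1 and 7 in Cyto, and 2 and 4 in WT than in KO cells in 1 mM glucose. In 10 mM glucose these numbers were 2 and 5, 0 and 5, and 1 and 4. Of all genes, 60.0%, 64.7% and 58.2% were called in 1 mM and 45.3%, 38.5% and 40.8% in 10 mM. The shares of the list called were near these in all lines in 1 mM glucose and in Cyto and WT in 10 mM. Scaper, the adaptor of this pathway, fell in 1 mM glucose by 0.68 ± 0.10 in Nuc, 0.57 ± 0.10 in Cyto and 0.86 ± 0.10 in WT (largest adjusted p = 8.86e-05).

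Enzymes that modify tubulin moved in both directions. Of 16 measured, 4 were higher and 7 lower in Nuc than in Cyto in 1 mM glucose, and 3 and 3 in 10 mM, beside 41.0% and 31.0% of all genes called. Vash1, a carboxypeptidase that removes the terminal tyrosine of α-tubulin, was higher in Nuc than in Cyto by 2.49 ± 0.31 in 1 mM and 1.73 ± 0.38 in 10 mM glucose (adjusted p = 7.31e-06 and 0.00257). Hdac6, a tubulin deacetylase, fell against KO in 1 mM glucose by 1.00 ± 0.12 in Nuc and 0.92 ± 0.12 in WT (adjusted p = 1.54e-06 and 4.50e-06). In Cyto against KO it was not among the 3 largest called changes of this list, and its value is not given. Of 27 measured microtubule-associated proteins, 7 were higher and 3 lower in Nuc than in Cyto in 1 mM glucose and 5 and 5 in 10 mM, numbers near those 41.0% and 31.0%. Kif2c, a microtubule-depolymerizing kinesin of mitosis, was higher in Nuc by 0.95 ± 0.11 in 1 mM glucose (adjusted p = 2.43e-06).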

How the data were processed

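Mouse RNA-seq values were deposited as 1 table per medium of log2 normalized expression. Per the submitters' processing notes, the authors used kallisto on GRCm39, edgeR and limma; versions and the cut-off for listing a gene are not given in the sources used here. Depth is unknown, so no counting intervals are given. The 1 entry per table without a symbol was left out.

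Constructs were compared in limma 3.58.1 (R 4.3.3), with all 4 groups of a table in 1 fit of group means, a prior variance that follows intensity, and Benjamini-Hochberg adjustment over the whole table (threshold 0.05). Differences of fold changes between media were fitted on the 11931 shared genes. The fit was tested on simulated data. The members and lists were chosen with earlier results of these data known. All 10 members were named, and of each list up to 3 called genes with the largest change in a comparison. Alternatives were another prior, library medians, quantile normalization, 1 added, a minimum mean of 0, sample weights, the replicate number, the compared groups alone, and each library left out. 2 further ones, chosen after seeing the data, removed transcript length trends or the 10 mM libraries numbered 4.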

Additional observations from a re-analysis of the deposited data

Results flagged for a closer look

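Of 70 groups of 4 libraries checked for a library standing apart by Dixon's criterion, 6 had one, where chance gives about 1 in 20. In 1 mM glucose these were Tubb2a in Cyto library 1 (6.05 on the log2 scale; others 5.88 to 5.90), Tubb2b in KO library 3 (2.72; 3.04 to 3.06) and Tubb5 in Nuc library 1 (9.59; 9.77 to 9.79). In 10 mM glucose they were Tubb5 in Nuc library 4 (10.59; 10.38 to 10.42), Tubb5 in WT library 4 (10.60; 10.51 to 10.52) and Tuba1b in Nuc library 4 (10.64; 10.37 to 10.41).

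The other flagged values are effects that differed between media, given as the log2 effect in 1 mM less the effect in 10 mM glucose, with limma's adjusted p. Between Nuc and Cyto these were Tubb2b (0.99, adjusted p = 0.00330), Tubb5 (0.43, 0.000488) and Tuba1b (0.42, 0.00837). Between Nuc and KO they were Tubb2a (-0.88, 4.06e-08), Tubb2b (-0.61, 0.0371), Tubb5 (-0.42, 0.000185) and Tuba1a (-1.17, 3.07e-09). The Tubb2b value is uncertain, since it was -0.26 (adjusted p = 0.365) with sample weights and -0.46 (0.126) after quantile normalization, and its adjusted p ran up to 0.101 when single libraries were left out. Between Cyto and KO they were Tubb2a (-0.82, 1.82e-07), Tubb2b (-1.60, 3.12e-06), Tubb5 (-0.84, 4.07e-09), Tuba1a (-1.31, 5.16e-10), Tuba1b (-0.40, 0.00443) and Tuba1c (-0.35, 0.0245). The Tuba1c call was lost without Cyto library 1 in 10 mM (adjusted p = 0.0590), KO library 1 in 10 mM (0.0568) or KO library 4 in 1 mM (0.0603). Between WT and KO they were Tubb3 (0.87, 0.0110), Tubb2a (-0.33, 0.0140), Tubb2b (0.80, 0.0104), Tuba1a (-0.71, 2.24e-05) and Tuba4a (0.41, 0.0412; up to 0.106 when single libraries were left out). The Cyto effect on Tubb3 against KO had opposite signs, 1.36 in 1 mM and -2.58 in 10 mM glucose, a difference of 3.94 that was not tested because the gene was chosen on Cyto libraries. Medium and batch cannot be told apart in all of these.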

How the results depend on the processing

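The number of called members changed by more than 1.5 times in these cases, and the cause was not tested. WT against KO in 1 mM glucose had 8 in place of 4 once transcript length trends were removed. Nuc against KO in 10 mM glucose had 2, but 1 without the intensity trend or with only the compared groups, 4 after quantile normalization, 5 with the replicate block or without the libraries numbered 4, and 6 without length trends. Cyto against KO in 10 mM had 4, but 2 without the intensity trend and 2 to 5 when single libraries were left out; Nuc against Cyto in 10 mM had 4, but 2 with only the compared groups and 2 to 5 when single libraries were left out. The difference between media of Nuc against Cyto had 3, and 6 with sample weights. Tubb5 in WT against KO in 10 mM reversed to -0.24 after quantile normalization, and Tubb3 in Cyto against WT in 1 mM ran from -0.025 (without WT library 1) to 0.28 when single libraries were left out. Replicate numbers did not pair the libraries by the rule used: in 0 of 12 comparisons did all same-numbered pairs correlate above 0.1 (range -0.18 to 0.36). In 10 mM glucose the pairs numbered 4 correlated at 0.36 between Nuc and KO, 0.23 between Nuc and WT and 0.16 between WT and KO. With Cyto these pairs correlated at 0.01 to 0.10. Tubb3 in WT against KO kept its call in 1 mM (adjusted p at most 0.00110) and missed it in 10 mM (at least 0.0561) in every alternative run. Tuba1a against KO in 1 mM kept its calls in all 3 lines (adjusted p at most 4.03e-06). Unknown depth limits statements on the low levels of Tubb3 in Cyto cells and of Tubb2b.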
